A study of Mus musculus with 40 samples.

Results

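The genes described here are the 10 members of a list for arginine and polyamine metabolism: Slc7a1 and Slc7a2 for uptake, Arg1 and Arg2 for cleavage, Nos2 for nitric oxide, Ass1 for resynthesis, Oat and Odc1 for the use of ornithine, and Srm and Sat1 for polyamines. They were listed by their symbols, with earlier results of these data known, and all 10 were found among the 45706 genes of the deposited tables. RNA-seq had been run on 40 libraries of sorted mouse cells in 10 populations of 4 libraries each. Blood neutrophils and blood monocytes came from healthy and from tumor-bearing mice, tumor neutrophils and tumor monocytes from colon tumors, and epithelial and stromal cells from healthy colon and from tumors. Neutrophils had been sorted as CD45+ EpCAM- CD11b+ MHCII- Ly6C-low Ly6G+ cells, monocytes as Ly6C-high Ly6G- cells of the same gate, epithelial cells as CD45- EpCAM+ and stromal cells as CD45- EpCAM-. Healthy mice were C57Bl6 without a transgene or an agent. Tumor-bearing mice were of C57Bl6 mixed with an Sv strain (Sv129 in the first label, with a number that rises from sample label to sample label after it) and carried Cdx2CreERT2 - Apc fl/fl. A single dose of tamoxifen (25 mg/kg, at 8 to 10 weeks of age) had deleted Apc, the tumor suppressor that restrains Wnt signaling, in colon epithelium, where the Cdx2 promoter drives the recombinase. Strain, transgene and tamoxifen cannot be told apart from the tumor in any comparison with healthy mice, and some blood libraries pooled 2 animals. Per the methods of the study, tissue cells were released by enzyme digestion of minced tissue, and blood cells were taken after lysis of red cells. This handling cannot be told apart from the tumor in any comparison of tumor with blood.

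Arginine enters cells through the cationic amino acid transporters of the SLC7 family. Arginases cleave it to ornithine and urea, whereas inducible nitric oxide synthase, the product of Nos2, turns it into nitric oxide and citrulline, and Ass1 with Asl rebuild arginine from that citrulline. Ornithine is decarboxylated by Odc1 to putrescine, from which Srm makes spermidine, or is passed by Oat toward proline and glutamate, while Sat1 acetylates spermidine and spermine for export or breakdown. In myeloid cells of tumors, arginase and inducible nitric oxide synthase are known for depleting arginine that T cells need.

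Levels are given as RPKM, the number of reads scaled to transcript length and to a library factor, as the study's authors computed it. That factor did not follow the total counts. Relative to them it ran from 0.643 (healthy epithelial replicate 1) to 1.56 (healthy blood neutrophil replicate 3) times its median over the libraries. Changes are given as log2 fold changes from edgeR on the estimated counts, on the scale of its TMM library factors. A gene passed where the Benjamini-Hochberg adjusted p-value over all tested genes was under 0.05. Totals ran from 10717873 to 38002939 counts per library, and mitochondrial genes took 5.34 to 83.9% of them, so that RPKM and TMM can order populations differently. Several libraries held marker transcripts of other cell types, and how these came to be there was not tested. In tumor neutrophil replicate 1 the 10 epithelial markers reached a median of 79.5% of their level in tumor epithelium, against 4.90 to 15.6% in replicates 2 to 4, and the 6 neutrophil markers stood at 8.38% of their level in blood neutrophils of tumor-bearing mice, against 45.7 to 60.4%. Tumor stromal replicates 1 and 2 carried epithelial markers at 93.9 and 45.1%, against 19.0 and 12.2% in replicates 3 and 4, and the 7 fibroblast markers summed to 6.03 to 24.1 RPKM in tumor stroma against 359 to 2017 in healthy stroma, so the tumor stromal libraries held few transcripts of fibroblasts. Healthy epithelial replicate 4 had the highest mitochondrial share and epithelial markers at 42.5%. In bulk libraries fewer cells of a type and less RNA per cell cannot be told apart.

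The 2 arginases peaked in different cells, and tumor monocytes held both. Arg1 (chromosome 10, 24915221 to 24927484, mm10), the cytosolic form, had 7.01, 15.4, 19.7 and 40.02 RPKM in tumor monocyte replicates 1 to 4. Every other library of the series had at most 2.94 RPKM, so that no other population reached the tumor monocytes. Arg2 (chromosome 12, 79130777 to 79156301), the mitochondrial form, had its highest means in neutrophils. It had 24.4 to 37.2 RPKM in those of healthy blood, 31.7 to 36.8 in those of blood of tumor-bearing mice and 34.2, 130.0, 89.1 and 103 in tumor neutrophils. Tumor monocytes came next with 21.4 to 33.0 RPKM, and their range overlapped that of blood neutrophils. All 24 libraries of the other 6 populations had 10.4 RPKM or less, the highest being tumor stromal replicates 3 and 4. Exons of Arg2 overlap those of Vti1b on the other strand, and the counting is not stated to use strand. Vti1b had mean levels between 1.37 and 6.22 RPKM in all 10 populations, so that reads of the overlap are a small part of Arg2 in neutrophils. They could be a larger part of it where Arg2 was low, as in healthy blood monocytes, healthy stroma and tumor epithelium, with means of 0.391, 0.365 and 0.532 RPKM. Of the summed counts of both genes, Arg2 held 0.813 to 15.5% in healthy blood monocytes and 4.35 to 17.7% in healthy stroma. It held 15.1 to 34.4% in tumor epithelium and 41.3 to 55.5% in healthy epithelium. The size of this part was not tested.

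**Figure D1:**
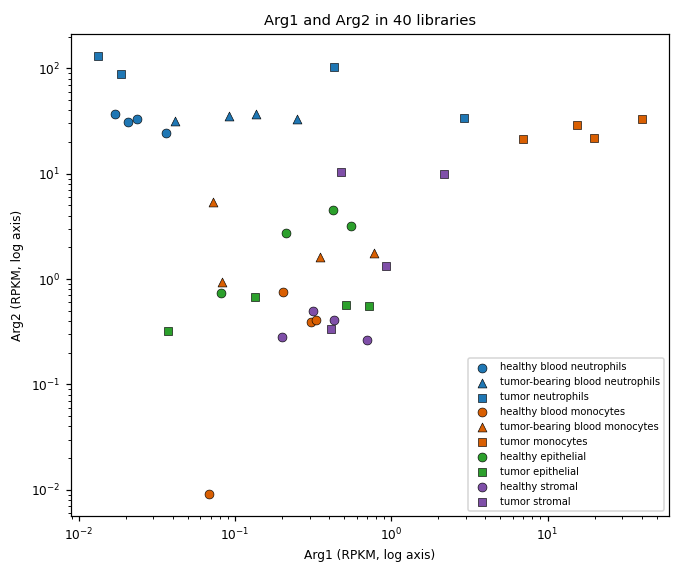
Arg1 against Arg2 in the 40 libraries, both in RPKM on log axes, 1 point for each library, with color for the cell type and shape for the source. Neutrophils from blood and tumor stand at the top with Arg2 above 24 RPKM and Arg1 below 3, and the 4 tumor monocyte libraries stand alone at the right with both genes above 7 RPKM.

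Nos2 (chromosome 11, 78920787 to 78960254) was highest in tumor monocytes and tumor neutrophils, but unevenly. Tumor monocyte replicates 1 to 4 had 21.7, 0.619, 1.05 and 2.32 RPKM, and tumor neutrophils 2.12, 0.0593, 7.03 and 8.98, so that 1 tumor monocyte library stood apart, the tumor neutrophils were spread widely and the 2 populations overlapped. Ass1 (chromosome 2, 31470207 to 31520672) was a monocyte gene. Its level was 14.1, 14.3, 19.0 and 18.9 RPKM in tumor monocytes, 3.89 to 11.7 in healthy blood monocytes and 1.87 to 4.21 in blood monocytes of tumor-bearing mice, and no library of the other populations exceeded 1.97. Blood neutrophils were nearly devoid of it, with 0 to 11 counts per library. The values of Ass1 are uncertain in size, because the processed pseudogene Gm5424 on chromosome 10 (62071123 to 62072362) matches its transcript over 1240 bases with 99.5% identity and received 20231 counts against 19517 for Ass1. In the 29 libraries with at least 100 counts over both genes, Ass1 held 48.2 to 52.3% of them, so the reads were divided almost evenly and both genes moved together.

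The transporters differed as well. Slc7a1 (chromosome 5, 148327410 to 148399904), the widely expressed arginine transporter, averaged 0.856 to 1.99 RPKM in healthy blood monocytes, tumor monocytes and the epithelial and stromal populations, 0.512 in blood monocytes of tumor-bearing mice, 0.444 in tumor neutrophils, and 0.0700 and 0.0139 in blood neutrophils of healthy and tumor-bearing mice. Slc7a2 (chromosome 8, 40862396 to 40922308), the cytokine-inducible transporter, had 4.56, 1.01, 5.03 and 2.26 RPKM in tumor monocytes. Healthy stroma followed with 0.317 to 1.22 RPKM, overlapping the lowest tumor monocyte library, and all 16 blood libraries had 0.0932 or less. The only tumor neutrophil library above 0.011 RPKM was replicate 1, at 0.324, the library with epithelial markers, whose part in this value was not tested. Tumor epithelium had Slc7a2 at 0.292 to 0.356 RPKM.

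Of the enzymes that use ornithine, Oat (chromosome 7, 132557478 to 132576398) was present everywhere and highest in healthy stroma, with 11.4, 7.70, 7.98 and 18.9 RPKM in replicates 1 to 4. No library elsewhere exceeded 7.62 RPKM. Odc1 (chromosome 12, 17544794 to 17551505), the rate-limiting enzyme of polyamine synthesis, was low in these tables: the highest library was healthy stromal replicate 3 at 3.03 RPKM, tumor monocytes had 0.537 to 1.34, and all 16 blood libraries had 0.115 or less. Processed pseudogenes with 95.1 to 97.9% identity to Odc1 received counts too, from 32 to 177 in each of 5 that are in the tables. They sum to 646, or 24.9% of the 2595 counts of Odc1 over all 40 libraries, and the level of Odc1 is uncertain to that extent. Srm (chromosome 4, 148591503 to 148594993) was likewise below 2.5 RPKM in every library and had at most 3 counts in each of the 8 blood neutrophil libraries, the number taken here as the limit of detection. Sat1 (chromosome X, 155213132 to 155216449) was the most evenly spread member, with means from 8.40 RPKM in tumor epithelium to 35.2 in healthy blood monocytes, and every neighbouring pair in the order of its 10 means overlapped in range. A pseudogene, Gm5552, that matches 318 bases of Sat1 followed it closely over the 10 population means (Pearson r = 0.99).

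**Figure D2:**
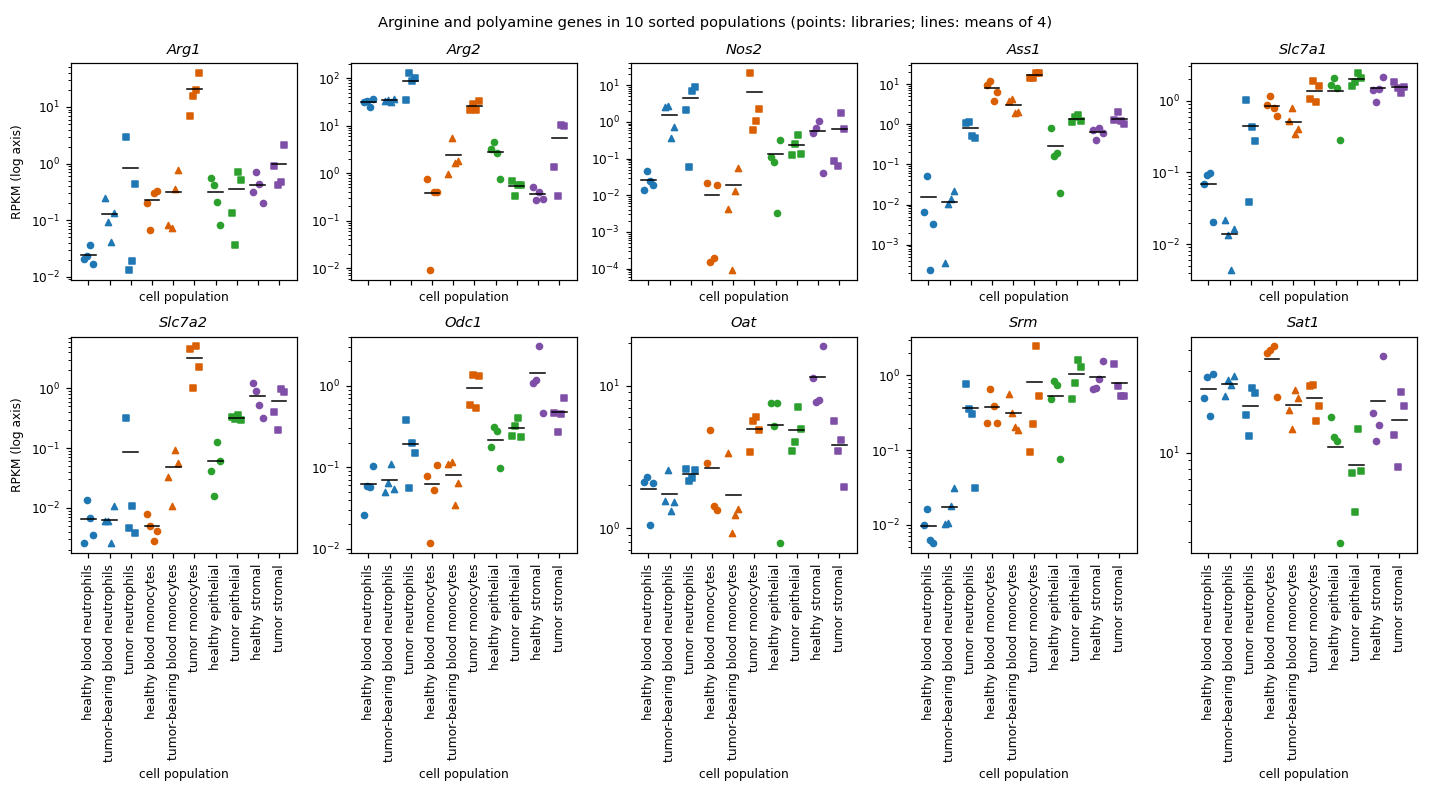
RPKM of each of the 10 genes (log axis) by cell population, with 1 point for each library and a line at the mean of 4 libraries. Arg1, Slc7a2 and Ass1 peak in tumor monocytes, Arg2 in neutrophils and Oat in healthy stroma, while Sat1 varies least.

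Tumor monocytes were compared with blood monocytes of tumor-bearing mice, 2 sources that also differ in the digestion of the tissue. Of the 10 members, 8 passed, all higher in tumor and all by more than 1.5 on the log2 scale, whereas 17.1% of all 15280 tested genes passed in either direction. The median log2 fold change was 3.20 over the 10 members and -0.03 over all genes. The 8 were both transporters, both arginases, Nos2, Ass1, Odc1 and Oat, and for each of them the lowest tumor library lay above the highest blood library (2-sided exact permutation test of mean RPKM, p = 0.0286 each, the smallest that 4 against 4 libraries allow). These tests used the libraries on which edgeR had called the 8. The share of all genes without overlap is not given here.

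Slc7a2 rose from 0.0483 ± 0.0353 to 3.22 ± 1.90 RPKM (SD, n = 4 here and throughout), a log2 fold change of 6.37 ± 0.77 (SE, edgeR adjusted p = 3.76e-04). Slc7a1 increased from 0.512 ± 0.198 to 1.38 ± 0.433 RPKM (log2 fold change 1.66 ± 0.33, edgeR adjusted p = 0.00654). Arg1 went from 0.0829, 0.0724, 0.351 and 0.776 RPKM in blood to the levels given above, a log2 fold change of 6.22 ± 0.86. Arg2 had 0.938, 5.40, 1.60 and 1.77 RPKM in these blood monocytes and rose by 3.65 ± 0.52 on the same scale. Both arginases were thus higher in every tumor monocyte library, and Arg2 reached a mean of 26.3 ± 5.73 RPKM beside 20.5 ± 14.0 for Arg1. For Nos2, 3 of 4 blood monocyte libraries held at most 3 counts and replicate 4 held 13, so that its fitted log2 fold change of 8.80 ± 1.55 depends on how low counts are treated. Counts per total counts gave a ratio of 305 with a 95% exact interval of 190.2 to 524, which covers counting error only. Ass1 averaged 2.95 ± 1.17 RPKM in blood and 16.6 ± 2.76 in tumor, a rise of 2.76 ± 0.32 on the log2 scale, beside 2.73 ± 0.32 for Gm5424.

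Of the enzymes that use ornithine, Odc1 increased by 3.76 ± 0.60 on the log2 scale (0.0815 ± 0.0387 RPKM in blood, 0.947 ± 0.446 in tumor) and Oat by 1.82 ± 0.41 (1.72 ± 1.11 and 5.01 ± 1.15). The medians of the marker lists moved as well between blood and tumor monocytes. The 5 monocyte markers had medians of 66.2 to 142% of their mean level in these blood monocytes in blood and 31.2 to 49.7% in tumor. The 5 macrophage markers had medians of 3.43 to 44.4% of their mean tumor monocyte level in blood and 48.0 to 131% in tumor. Their sums overlapped, at 12.3 to 23.5 RPKM in blood and 11.3 to 28.9 in tumor. The epithelial markers, relative to tumor epithelium, had medians of 0.138 to 0.284% in blood and 0.944 to 17.8% in tumor. The part of these shifts in the 8 changes was not tested. The polyamine enzymes did not pass. Srm had 0.0928, 0.224, 2.45 and 0.531 RPKM in tumor against 0.188 to 0.560 in blood (edgeR adjusted p = 0.252), with 1 high library, and Sat1 had 20.8 ± 4.63 against 18.9 ± 4.13 (adjusted p = 0.293). All 8 calls were kept when any 1 library was left out, among them tumor monocyte replicate 2, which carried epithelial markers at 17.8%. Nos2 lost its call with limma-voom (adjusted p = 0.0620) and with limma on log2(RPKM + 1) (0.0703).

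The same comparison for neutrophils gave fewer calls, all of them among those of monocytes. Of the 8 members with enough counts to be tested, 2 passed, Ass1 and Slc7a1, both higher in tumor, against 17.9% of all 13674 tested genes, so the number of calls among the members was near that background. The median log2 fold change was 1.53 over the 8 members and 0.11 over all genes. Ass1 had 1.10, 1.12, 0.512 and 0.451 RPKM in tumor neutrophils and at most 0.0220 in blood neutrophils of tumor-bearing mice, where the 4 libraries together held 7 counts against 456 in tumor. The fitted log2 fold change was 6.12 ± 1.02 (edgeR adjusted p = 0.00269) and the ratio of counts per total counts 55.7 (95% exact interval 26.8 to 139). Gm5424 gave a log2 fold change of 6.15 ± 1.07. Slc7a1 had 1.03, 0.0384, 0.432 and 0.273 RPKM in tumor and 0.0215, 0.0136, 0.00438 and 0.0162 in blood (4.79 ± 0.88, adjusted p = 0.00437). Neither gene overlapped between tumor and blood (2-sided exact permutation test, p = 0.0286), and both passed without tumor neutrophil replicate 1. Here too the share of all genes without overlap is not given. Epithelial markers were present in all 4 tumor neutrophil libraries, at 4.90% or more of their level in tumor epithelium, where Ass1 averaged 1.38 and Slc7a1 1.99 RPKM. The 5 macrophage markers (C1qa, C1qb, C1qc, Adgre1 and Mrc1) had a median of 16.5 to 49.0% of their tumor monocyte level in tumor neutrophils and of at most 0.332% in these blood neutrophils, with sums of 2.73 to 6.85 and 1.92 to 4.17 RPKM. The part of epithelial cells and macrophages in the change was not tested. Monocyte markers summed to 5.25 to 17.7 RPKM in tumor neutrophils and to 11.8 to 20.9 in these blood neutrophils.

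The promoters of these 2 genes are shown because both passed in neutrophils. Across the 4 tumor neutrophil libraries they did not rank alike, since replicate 2 had the highest Ass1 and the lowest Slc7a1. The sequences are the 250 bases before the RefSeq start of transcription (GRCm38.p6), with capitals marking matches on either strand to CACGTG, the E-box bound by Myc and related factors, or to TGANTCA, the AP-1 site. Both motifs were searched in 32851 promoters of this length, of which 6.02% held the first and 6.75% the second, and a match is a description of the letters only. Ass1 had 1 match to CACGTG that began 36 bases before the RefSeq start, and the longer Slc7a1 transcript had 1 match to TGANTCA that began 123 bases before its own. The gene start of Ass1 given above, 31470207, lies within its window. The match follows that position and so lies inside the gene as placed above. In Odc1, Oat and Sat1 neither motif occurred in this window.
Ass1 promoter, chr2:31470020-31470269, plus strand: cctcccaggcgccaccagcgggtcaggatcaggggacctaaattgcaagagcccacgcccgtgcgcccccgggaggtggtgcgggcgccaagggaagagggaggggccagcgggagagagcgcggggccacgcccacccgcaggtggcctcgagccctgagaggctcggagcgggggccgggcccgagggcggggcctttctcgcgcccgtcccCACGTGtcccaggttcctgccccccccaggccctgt
Slc7a1 promoter, chr5:148399905-148400154, minus strand: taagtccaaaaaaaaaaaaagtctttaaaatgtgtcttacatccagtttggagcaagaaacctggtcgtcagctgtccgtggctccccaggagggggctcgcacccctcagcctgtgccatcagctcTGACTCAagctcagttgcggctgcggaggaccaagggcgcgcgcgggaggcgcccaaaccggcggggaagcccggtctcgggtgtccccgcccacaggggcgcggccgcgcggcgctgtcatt

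Arg2, the most abundant arginase of neutrophils, missed the threshold in tumor against blood neutrophils (log2 fold change 1.59 ± 0.50, edgeR adjusted p = 0.0509). Replicates 2 to 4 of tumor neutrophils had 89.1 to 130.0 RPKM, above every blood library, and replicate 1, with few neutrophil transcripts, had 34.2. Without replicate 1 the change was 1.92 and the adjusted p = 0.00437. Arg1 had 2.94, 0.0132, 0.0187 and 0.428 RPKM in tumor neutrophils and 0.0412 to 0.249 in blood, and its log2 fold change of 2.47 fell to 0.26 without replicate 1. Nos2 did not pass either (1.47 ± 1.00, adjusted p = 0.341), with replicate 2 at 0.0593 RPKM, below all 4 blood libraries, and replicates 3 and 4 above them. Odc1, Oat and Sat1 had log2 fold changes of 1.34, 0.54 and -0.40 (adjusted p = 0.197, 0.412 and 0.397). Slc7a2 and Srm had too few counts to be tested. The counts of Srm, 68, 34, 31 and 3 in tumor against 1, 1, 1 and 3 in blood, gave a ratio of 19.4 per total counts (95% exact interval 8.68 to 53.7).

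**Figure D3:**
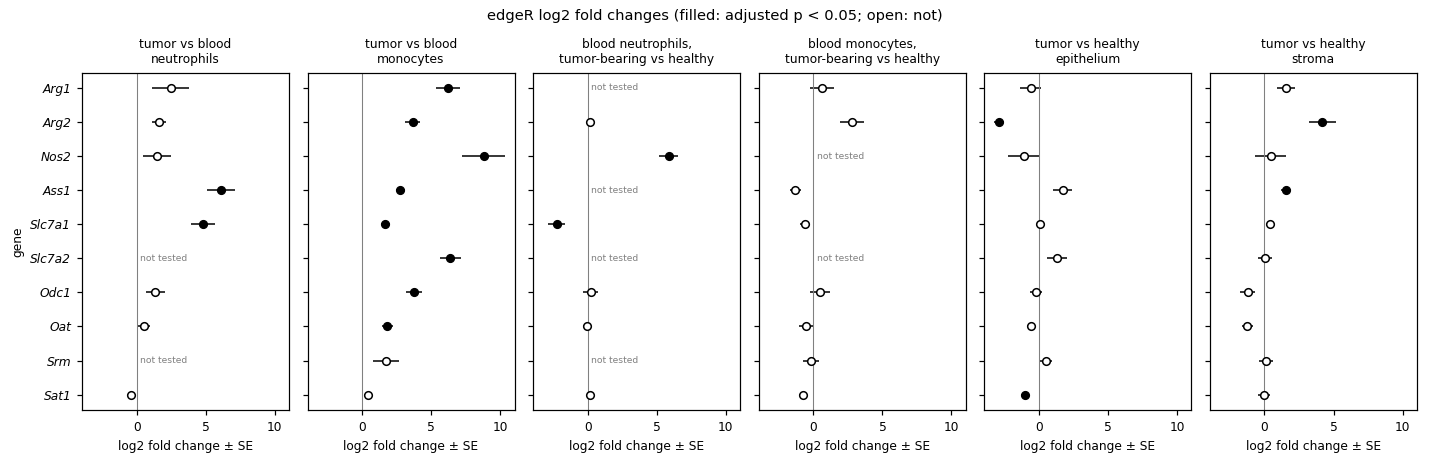
Log2 fold changes with their standard errors for the 10 genes (rows) in 6 comparisons (columns). Filled points passed an adjusted p of 0.05 and open points did not. The column for tumor against blood monocytes has 8 filled points, all to the right of 0, and no other column has more than 2.

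Whether entry into the tumor acted differently on neutrophils and monocytes was tested directly as an interaction over the same 16 libraries. Of the 10 members 2 passed, against 4.01% of 17466 tested genes. Nos2 rose less in neutrophils (log2 difference -7.40 ± 1.89, edgeR adjusted p = 0.0363), and Ass1 rose more (3.28 ± 0.80, adjusted p = 0.0287). Their starting points differed: in blood of tumor-bearing mice Nos2 was already at 0.373 to 2.66 RPKM in neutrophils and at most 0.0571 in monocytes, whereas Ass1 was at most 0.0220 RPKM in neutrophils and at least 1.87 in monocytes. Slc7a1 (2.97 ± 0.83, adjusted p = 0.0523), Arg2 (-2.17, 0.1003), Odc1 (-2.54, 0.102), Arg1 (-3.94, 0.152) and Slc7a2 (-3.12, 0.262) did not pass. Neither call was firm: Nos2 passed in 8 and Ass1 in 9 of the 16 fits without 1 library, with highest adjusted p-values of 0.105 (without tumor monocyte replicate 1) and 0.0665 (without blood neutrophil replicate 2), and both failed under limma-voom (0.110 and 0.0746). Arg1 and Slc7a2 passed without tumor neutrophil replicate 1, at -6.04 (adjusted p = 0.0329) and -6.35 (0.00669).

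In blood the presence of a tumor elsewhere in the body went with a change of Nos2 in neutrophils. Nos2 had 0.0141, 0.0456, 0.0243 and 0.0194 RPKM in blood neutrophils of healthy mice and 2.62, 2.66, 0.373 and 0.726 in those of tumor-bearing mice, so that the lowest library of the tumor-bearing mice was several times above the highest healthy one. The log2 fold change was 5.87 ± 0.69 (edgeR adjusted p = 0.00230), and the call was kept without any 1 library (adjusted p from 0.00177 to 0.0157) and in all 9 other fits that kept the gene, the weakest of them limma on log2(RPKM + 1) at 0.0447. Slc7a1 passed in the opposite direction, from 0.0700 ± 0.0353 to 0.0139 ± 0.00717 RPKM (-2.27 ± 0.59, adjusted p = 0.0491), but in only 1 of the 8 fits without 1 library, in which the adjusted p reached 0.148. These 2 of 6 members tested compare with 6.52% of 13361 genes, and the median log2 fold change was 0.16 over the 6 members and -0.01 over all genes. Arg2 averaged 31.5 ± 5.32 RPKM in healthy and 34.2 ± 2.19 in tumor-bearing mice (log2 fold change 0.15 ± 0.17, adjusted p = 0.656). Odc1, Oat and Sat1 did not pass either, with log2 fold changes of 0.20, -0.07 and 0.16. Arg1, Ass1, Slc7a2 and Srm had too few counts to be tested, and 12 counts of Arg1 in healthy against 52 in tumor-bearing mice gave a ratio of 4.64 (95% exact interval 2.45 to 9.56). The 6 neutrophil markers also differed between these groups, summing to 3687 to 8468 RPKM in healthy and 15242 to 19946 in tumor-bearing mice, and epithelial markers were at 0.108% or less of the tumor epithelial level in all 8 libraries. The part of the neutrophil marker difference in the Nos2 values was not tested.

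In blood monocytes none of the 8 members tested passed in tumor-bearing against healthy mice, where edgeR called 0.216% of 15313 genes. At an unadjusted p under 0.05, 3 members differed, and DESeq2 called 2. Arg2 had 0.00915 to 0.751 RPKM in healthy mice and 0.938 to 5.40 in tumor-bearing mice, without overlap (exact permutation p = 0.0286, log2 fold change 2.78 ± 0.86, edgeR adjusted p = 0.283, DESeq2 0.0164). Ass1 had 9.34, 11.7, 3.89 and 6.25 RPKM in healthy and 3.69, 4.21, 1.87 and 2.04 in tumor-bearing mice (-1.30 ± 0.39, edgeR adjusted p = 0.261, DESeq2 0.0492), with the groups overlapping. Sat1 had 38.3, 39.6, 41.7 and 21.01 RPKM against 17.8, 13.7, 23.3 and 20.7 (-0.78 ± 0.24, adjusted p = 0.278), again with overlap. The median was -0.36 over the 8 members and 0.02 over all genes. Nos2 and Slc7a2 were not tested, and Slc7a2 had 11 counts in healthy and 95 in tumor-bearing mice, a ratio of 9.41 per total counts (95% exact interval 5.03 to 19.5).

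The 2 blood cell types differed before any tumor. In healthy mice 4 of the 7 members tested passed between neutrophils and monocytes, against 50.8% of 15034 genes, and all 4 were past 1.5 on the log2 scale. Arg2 was higher in neutrophils, at 31.3, 33.2, 24.4 and 37.2 RPKM against 0.751, 0.00915, 0.396 and 0.407 (7.10 ± 0.68, edgeR adjusted p = 3.75e-05). Ass1 was lower by 8.08 ± 0.78, Srm by 4.33 ± 0.61 and Slc7a1 by 2.82 ± 0.47 (log2 fold changes -8.08, -4.33 and -2.82). No library of one cell type overlapped the other for these 4 genes, in the libraries on which edgeR had called them, and all 4 passed without any 1 library. The share of all genes without overlap is not given here. Healthy blood neutrophils held 13 counts of Ass1 in all against 4497 in monocytes, a ratio of 0.00315 (95% exact interval 0.00168 to 0.00539), and 5 of Srm against 141, a ratio of 0.0386 (0.0124 to 0.0923). Odc1, Oat and Sat1 did not pass (adjusted p = 0.378, 0.628 and 0.505). The median log2 fold change was 0.19 over the 7 members and -0.07 over all genes.

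In epithelium Arg2 was the member that fell by the most. Of the 10, 2 passed between tumor and healthy epithelium, both lower in tumor, against 22.6% of 16085 genes, and the medians were -0.40 and -0.01. Arg2 had 3.22, 4.48, 2.72 and 0.741 RPKM in healthy and 0.672, 0.323, 0.562 and 0.572 in tumor epithelium. The groups did not overlap (exact permutation p = 0.0286), the log2 fold change was -2.91 ± 0.37 (edgeR adjusted p = 3.36e-04), and the call was kept in all 8 fits without 1 library and all 10 other fits. Vti1b, which overlaps Arg2, also fell (-1.25 ± 0.35, adjusted p = 0.0257), and Arg2 held 41.3 to 55.5% of their summed counts in healthy and 15.1 to 34.4% in tumor epithelium. The neutrophil markers summed to 6.68 to 12.4 RPKM in healthy and 0.921 to 4.40 in tumor epithelium, against 3687 or more in blood neutrophils, where Arg2 was at 24.4 RPKM or more. The part of the overlap and of neutrophils in the fall of Arg2 was not tested. Sat1 fell by 0.99 ± 0.27 (log2 fold change -0.99, adjusted p = 0.0243), from 16.1, 12.3, 11.6 and 2.94 to 7.59, 4.47, 13.7 and 7.85 RPKM, which overlap, and 4 of the 8 fits without 1 library and both fits on log2 RPKM did not call it.

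Ass1 and Slc7a2 had levels that did not overlap between healthy and tumor epithelium although edgeR did not call them. Ass1 was at 0.808, 0.163, 0.190 and 0.0194 RPKM in healthy and 1.14 to 1.66 in tumor (1.72 ± 0.68, edgeR adjusted p = 0.0995), and it passed without healthy replicate 1, at 3.07 (6.99e-04), and with limma-voom (0.00874). Slc7a2 was at 0.0410, 0.0160, 0.128 and 0.0618 RPKM in healthy and 0.292 to 0.356 in tumor (1.33 ± 0.71, adjusted p = 0.217) and passed without healthy replicate 4, the library with 83.9% mitochondrial counts, at 0.0297. Slc7a1, Odc1, Oat, Srm, Nos2 and Arg1 had log2 fold changes between -1.08 and 0.53 (adjusted p of 0.190 or more). Odc1, a known Myc target, had 0.179, 0.316, 0.276 and 0.0983 RPKM in healthy and 0.244, 0.317, 0.400 and 0.238 in tumor epithelium, with overlap (-0.22 ± 0.44, adjusted p = 0.769).

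In stroma 2 of the 10 members passed, Arg2 and Ass1, both higher in tumor, against 9.56% of 19082 genes, and the medians were 0.27 and 0.03. Arg2 had 0.499, 0.266, 0.410 and 0.285 RPKM in healthy and 1.35, 0.337, 10.4 and 9.92 in tumor stroma (4.19 ± 0.96, edgeR adjusted p = 0.0297). The 2 high libraries, replicates 3 and 4, were also the 2 with neutrophil transcripts, since the 6 neutrophil markers summed to 40.9, 8.46, 1508 and 511 RPKM in replicates 1 to 4 and to 6.23 to 43.2 in healthy stroma. Their part in the Arg2 values was not tested. Ass1 rose from 0.713, 0.404, 0.792 and 0.598 to 1.28, 1.97, 1.20 and 1.007 RPKM, without overlap (1.55 ± 0.38, adjusted p = 0.0371). Macrophage markers had a median of 25.4 to 75.7% of their tumor monocyte level in tumor stroma and of 0.753 to 14.9% in healthy stroma, and their part in the Ass1 values was not tested. In the fits without 1 library Arg2 passed in 2 of 8 (highest adjusted p 0.0916) and Ass1 in 1 of 8 (highest 0.111). Without both tumor stromal replicates 1 and 2, Ass1 had an adjusted p of 0.144. Oat was lower in every tumor library, at 5.70, 3.46, 4.17 and 1.93 against 7.70 to 18.9 RPKM (exact permutation p = 0.0286), but edgeR did not call it (-1.24 ± 0.42, adjusted p = 0.102), while limma on log2(RPKM + 1) and DESeq2 did (0.0376 and 0.0464). Odc1 had 1.08, 1.17, 3.03 and 0.457 RPKM in healthy and 0.274 to 0.708 in tumor stroma (-1.22 ± 0.54, adjusted p = 0.205). The populations differ in their cells, as the fibroblast markers show, so these values compare the sorted fractions.

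**Figure D4:**
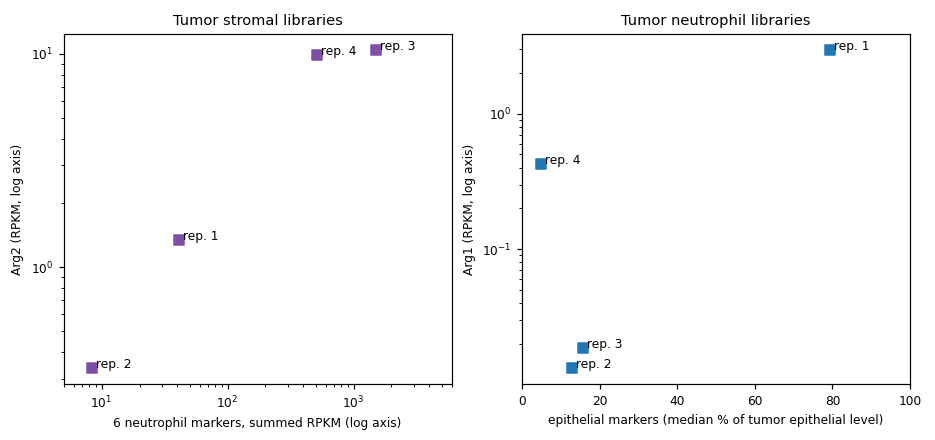
Left, Arg2 (RPKM, log axis) against the summed RPKM of 6 neutrophil markers (log axis) in the 4 tumor stromal libraries. Right, Arg1 (RPKM, log axis) against the median level of 10 epithelial markers, as a percentage of their level in tumor epithelium, in the 4 tumor neutrophil libraries. Stromal replicates 3 and 4 are high on both axes, and neutrophil replicate 1 is the highest of its 4 libraries on both.

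The opposite changes of Arg2 in epithelium and stroma differed from each other when tested as an interaction (log2 difference -7.11 ± 1.06, edgeR adjusted p = 4.98e-04). Arg2 was the only one of the 10 members to pass, against 15.1% of 20902 genes. It passed in all 16 fits without 1 library (adjusted p of 0.00175 or less) and in all 9 other fits. Among these, the fit without tumor stromal replicates 1 and 2 kept the libraries with high Arg2 and neutrophil markers, so it cannot bear on the part of those markers. No fit left out both replicates 3 and 4. The neutrophil markers in tumor stromal replicates 3 and 4, given above, apply to this difference too.

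Within the tumor, the populations were compared with each other in 1 fit of the 16 tumor libraries. The most members passed between tumor monocytes and epithelium, where 7 of 10 members passed, all higher in monocytes, against 32.1% of 19026 genes: Arg1 by 6.21 ± 1.29, Arg2 by 5.80 ± 0.89, Nos2 by 5.04 ± 1.45, Ass1 by 3.78 ± 0.43, Slc7a2 by 3.54 ± 0.99, Odc1 by 1.83 ± 0.54 and Sat1 by 1.57 ± 0.34 on the log2 scale. Against stroma, Ass1 (3.81 ± 0.43), Arg1 (4.62 ± 1.19) and Arg2 (2.55 ± 0.76) were higher in monocytes, 3 of 10 against a background of 22.7%. Tumor neutrophils differed from monocytes in 5 of 10 members (15.5% of all genes). Arg2 was higher in neutrophils by 2.57 ± 0.76, and Slc7a2, Arg1, Ass1 and Odc1 were lower (log2 fold changes -5.13, -4.41, -3.72 and -1.79).

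Between tumor neutrophils and epithelium 4 of 10 passed (24.7% of all genes), Arg2 by 8.37 ± 1.00, Nos2 by 5.13 ± 1.45 and Sat1 by 2.08 ± 0.35 higher in neutrophils and Slc7a1 lower (-1.58 ± 0.50). Between tumor neutrophils and stroma 2 of 10 passed (18.5%), Arg2 by 5.12 ± 0.86 and Sat1 by 1.20 ± 0.34, and between epithelium and stroma only Arg2 did (-3.26 ± 0.80, edgeR adjusted p = 0.0286, background 4.12%). The last call failed in 6 of the 16 fits without 1 library and under limma-voom (0.638). RPKM and TMM parted for some members here: Ass1 in tumor neutrophils was below epithelium in every library (0.451 to 1.12 against 1.14 to 1.66 RPKM), whereas the log2 fold change on the TMM scale was 0.06 ± 0.39 (adjusted p = 0.921). Over all 6 pairs 22 of 60 values passed, and with the animal named in the titles as a block 12 did. Both calls between neutrophils and stroma were lost with that block (Arg2 adjusted p = 0.0803, Sat1 0.594), as were Arg1, Arg2 and Odc1 between neutrophils and monocytes (0.0840, 0.115 and 0.165), Slc7a1 between neutrophils and epithelium (0.121), Nos2 and Odc1 between monocytes and epithelium (0.0780 and 0.0904), and Arg1 and Arg2 between monocytes and stroma (0.312 and 0.251).

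As shares of the sum of the 4 mean RPKM values, tumor monocytes held 90.4% of Arg1, 82.4% of Ass1, 75.9% of Slc7a2 and 49.4% of Odc1, and tumor neutrophils held 73.4% of Arg2. Leaving out any 1 library moved the share of Arg1 between 86.5 and 93.2%, that of Ass1 between 81.7 and 83.2% and that of Arg2 between 70.03 and 76.9%. The share of Nos2 in monocytes, 54.2%, rested on replicate 1 and was 19.6% without it, and then neutrophils held 67.3%. Slc7a1 had its largest share in epithelium (37.3%, 35.5 to 38.7% without 1 library). The shares of Srm overlapped when 1 library was left out, at 30.2 to 42.0% in epithelium, 21.1 to 32.2% in stroma and 11.3 to 32.5% in monocytes. Oat and Sat1 were spread over the 4 populations. These shares weigh each sorted population equally and say nothing of how many cells of each type a tumor held.

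**Figure D5:**
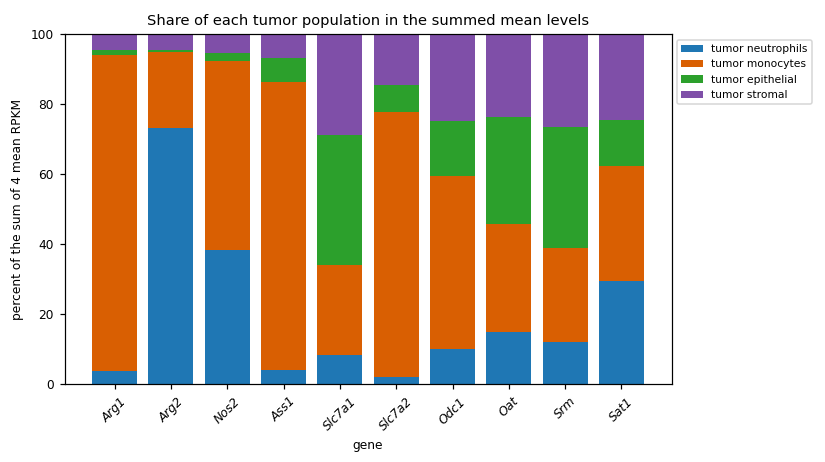
Share of each of the 4 tumor populations in the sum of their mean RPKM (percent, stacked bars, means of 4 libraries) for the 10 genes. The bars of Arg1, Ass1 and Slc7a2 are mostly tumor monocytes, that of Arg2 mostly tumor neutrophils, and those of Oat, Sat1 and Slc7a1 are divided.

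Genes around these 10 were followed through a wider list of 44 genes of citrulline and nitric oxide, urea cycle and creatine, transport, proline and polyamine metabolism, of which 43 were in the tables. In monocytes 7 of 33 tested passed between tumor and blood (21.2%, near the 17.1% of all genes), 6 higher, the largest being Smox, the spermine oxidase (1.22 ± 0.866 to 15.9 ± 4.29 RPKM, log2 fold change 3.95 ± 0.51), Slc3a2, the heavy chain of several amino acid transporters (2.59 ± 0.34), and Azin1, which frees ornithine decarboxylase from antizyme (2.32 ± 0.32). The only lower one was Atp13a2, a lysosomal polyamine exporter (-1.72 ± 0.37). In neutrophils 10 of 23 passed (43.5% against 17.9% of all genes), 8 higher, led by Slc3a2 (1.71 ± 0.276 to 21.8 ± 2.88 RPKM, 3.80 ± 0.40), Smox (5.21 ± 4.27 to 34.1 ± 7.67, 2.75 ± 0.54) and Gch1, the first enzyme of the cofactor that nitric oxide synthases need (2.13 ± 0.47). Oaz2, an antizyme, and Azin1 were lower in tumor neutrophils (-1.85 ± 0.44 and -1.01 ± 0.29). Azin1 therefore moved in opposite directions in the 2 cell types, from 14.0 to 6.78 RPKM in neutrophils and from 2.51 to 10.5 in monocytes, and the interaction passed (-3.45 ± 0.42, edgeR adjusted p = 5.92e-04). Of the 35 tested genes of the list 2 did so (5.71%, near the 4.01% of all genes).

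In blood neutrophils of tumor-bearing mice 4 of 19 list genes passed against healthy mice (21.1% against 6.52% of all genes), with Oaz2 (1.30 to 3.36 RPKM, 1.44 ± 0.21) and Azin1 (5.79 to 14.0 RPKM, 1.34 ± 0.25) higher and Atp13a3, a polyamine transporter, lower (-1.09 ± 0.23). These values and those for tumor against blood neutrophils share the blood neutrophil libraries of tumor-bearing mice. In blood monocytes 0 of 33 passed with edgeR, where 3 had an unadjusted p under 0.05 and DESeq2 called 1. In healthy blood 18 of 28 differed between neutrophils and monocytes (64.3% against 50.8% of all genes), 15 of them lower in neutrophils, such as Slc7a7, the exporter of arginine (-4.48 ± 0.51), Gatm, which uses arginine for creatine (-3.91 ± 0.63), and Mtap, which salvages the by-product of polyamine synthesis (-3.65 ± 0.88), while Smox (4.19 ± 0.49) and Azin1 (1.60 ± 0.25) were higher.

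Tumor epithelium differed from healthy epithelium in 13 of 35 list genes (37.1% against 22.6% of all genes), 7 higher and 6 lower. Otc and Cps1, the mitochondrial enzymes that make citrulline, were lower (1.08 ± 0.740 to 0.0393 ± 0.0350 RPKM, -5.22 ± 0.78, and 4.33 ± 2.95 to 0.348 ± 0.160, -3.91 ± 0.57), as was Ddah1, which clears inhibitors of nitric oxide synthases (-2.53 ± 0.45). Its paralog Ddah2 was higher (4.29 ± 0.66), as were Pycr1, the last step of proline synthesis (0.182 ± 0.101 to 3.38 ± 0.414 RPKM, 3.56 ± 0.37), and Smox (3.45 ± 0.45). In stroma 2 of 38 passed (5.26%, below the 9.56% of all genes), again Pycr1 (3.91 ± 0.65) and Smox (3.14 ± 0.60), and tumor stromal replicates 1 and 2 carried the epithelial markers given above. Between epithelium and stroma the change differed in 5 of 42 (11.9%, below the 15.1% of all genes). Ddah2, Mtap and Slc3a2 rose in epithelium (4.29, 2.76 and 1.11 on the log2 scale) and did not pass in stroma (-0.89, 0.84 and -0.27). Ddah1 fell in epithelium and had -0.04 in stroma, and Pts, which passed in neither, had -0.55 in epithelium and 1.73 in stroma. Within the tumor, Smox was higher in neutrophils than in monocytes, epithelium and stroma (1.78, 5.02 and 4.05 on the log2 scale), Pts, a further enzyme of the cofactor pathway, was likewise (3.17, 3.65 and 3.53), and Gatm was highest in monocytes (21.3 ± 5.41 RPKM against 0.516 in neutrophils, 0.321 in epithelium and 1.48 in stroma).

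Over the 10 population means the patterns of Arg1 and Slc7a2 were alike (Pearson r of log2(RPKM + 1) = 0.93), and so were those of Slc7a1 and Srm (r = 0.97), each over 10 points that share their libraries. Among 4904 genes with a mean of at least 5 RPKM in 1 population, the named genes closest to Arg2 were Mir7678, Trem1 and Lmnb1 (r = 0.97, 0.97 and 0.96), to Nos2 Alas1, Rab20 and Inhba (0.95, 0.93 and 0.93), to Odc1 Mid1-ps1, Il6 and Pdpn (0.96, 0.95 and 0.95), and to Slc7a2 Gpr171, Gm37368 and Cd83 (0.96 each). Closest to Arg1 were a gene without a symbol (ENSMUSG00000087653), B3gnt5 and Mir133c (0.98, 0.97 and 0.96). The closest to Ass1 and to Sat1 were the pseudogenes Gm5424 and Gm5552 that share their sequence, followed by Jarid2 (0.98) and Reep3 (0.95).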

How the data were processed

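RNA had been amplified with a kit that does not mark strand (NuGEN Ovation V2) and sequenced on a HiSeq 2500. Per the labels and the methods of the study, reads were aligned to mm10 with Bowtie2 and assigned to genes with HTSstation, and the authors deposited estimated counts (99.6% of the values above 0 were not whole) and RPKM values computed from them for each library. How reads with several matches were treated is not given in the sources used here.

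Counts were rounded to whole numbers and tested with edgeR 4.0.16 (TMM factors, filterByExpr, robust quasi-likelihood test) in R 4.3.3, with Benjamini-Hochberg adjustment over all tested genes. Comparisons of groups used their own libraries, interactions 16 libraries, and tumor populations 1 fit of 16. Levels are means ± SD of the deposited RPKM, compared by 2-sided exact permutation of 70 arrangements. Where at least 3 of 4 libraries of a group held at most 3 counts, ratios of counts per total counts with 95% exact intervals are given, which cover counting error only. Totals of 10717873 to 38002939 counts set the precision. Each population had 4 libraries, and p-values measure the spread between them. The titles of several libraries of different populations, in healthy blood too, name the same animal. Only the block fit of the tumor populations took account of that animal. Among 60 pairs of libraries of the same population none held identical values. Alternatives were DESeq2 1.42.0, limma-voom and other limma fits (version 3.58.1), size factors by RLE, other filters on low counts, 1 fit of all 40 libraries, the replicate number or the animal as a block, limma on log2(RPKM + 1) or log2(RPKM + 0.1), removal of mitochondrial genes, and removal of each library in turn.

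Near-identical copies (at least 95% identity over 100 bases) were sought with BLAST 2.17.0 among GENCODE M21 transcripts, and promoters came from RefSeq, where 5 of the 10 members had an entry. All 10 members were to be described. From the wider list up to 3 genes in each direction were named, by size of change among those that passed with a mean of at least 1 RPKM in a group compared, and up to 3 genes most like each member by Pearson r. The members and lists were chosen with earlier results of these data known. The edgeR step was tested on simulated data, where it recovered 20% of 4-fold changes between tumor and blood neutrophils and 40% between tumor and blood monocytes.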

Additional observations from a re-analysis of the deposited data

Results flagged for a closer look

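Over the 10 genes and 10 populations, 100 groups of 4 libraries were examined for 1 library far from the other 3, which chance alone gives in about 1 of 20 groups, and 5 stood out. In tumor neutrophils, replicate 1 was the highest library for Arg1 (2.94 RPKM, the next 0.428) and for Slc7a2 (0.324 RPKM, the next 0.0107). This library also had the highest epithelial markers of its population (79.5% of their tumor epithelial level) and the highest macrophage markers (49.0% of their tumor monocyte level). Tumor epithelium had Arg1 at 0.0371 to 0.717 RPKM and Slc7a2 at 0.292 to 0.356. Tumor monocytes had Arg1 at 7.01 to 40.02 RPKM and Slc7a2 at 1.01 to 5.03. The part of other cells in both values was not tested. Nos2 in tumor monocyte replicate 1 was 21.7 RPKM, with 2.32 in the next library. Ass1 in healthy blood neutrophil replicate 2 was 0.0506 RPKM, which is 11 counts, with 0.00664 in the next. Sat1 in healthy blood monocyte replicate 4 was the lowest of its population at 21.01 RPKM, with 38.3 in the next.

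In 3 cases the same contrast differed between cell types in a test of the interaction with edgeR. For Nos2 (log2 difference -7.40) and Ass1 (3.28), neutrophils and monocytes changed unequally between blood and tumor, and the change from healthy colon to tumor differed between epithelium and stroma for Arg2 (-7.11).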

How the results depend on the processing

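Of 139 values for the 10 genes, 45 passed and 25 of these did so in every alternative and without any 1 library, while 73 of the 94 others never passed and 0 of the called values reversed. Counts of members that passed moved as follows. Tumor against blood neutrophils gave 2, but 1 with at least 10 counts in every library or with log2(RPKM + 1), 4 in the fit of all 40 libraries, and 2 to 3 without 1 library. Tumor against blood monocytes gave 8, but 4 with at least 10 counts, where fewer members are tested. Blood neutrophils gave 2, but 1 with limma-voom, no filter, the replicate block, log2(RPKM + 1) or log2(RPKM + 0.1), 0 with at least 10 counts, and 1 to 2 without 1 library. Blood monocytes gave 0, but 2 with DESeq2. Epithelium gave 2, but 4 with limma-voom and 1 to 3 without 1 library. Stroma gave 2, but 1 with limma-voom, no filter, log2(RPKM + 1), log2(RPKM + 0.1) or without both tumor stromal libraries 1 and 2, 0 with the replicate block, and 0 to 1 without 1 library. Healthy blood neutrophils against monocytes gave 4, but 1 with at least 10 counts and 4 to 5 without 1 library. The difference in entry gave 2, but 0 with limma-voom or at least 10 counts, 4 with DESeq2, 5 in the fit of all 40, 1 with the replicate block, and 0 to 4 without 1 library. The difference between epithelium and stroma gave 1, and 1 to 2 without 1 library. The tumor populations gave 22, but 12 with the animal as a block, and 18 to 28 without 1 library. Apart from filters that test fewer genes and settings with fewer samples, the cause was not tested.

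Counts over all genes moved by more than 1.5 times too. Tumor against blood neutrophils had 2443 calls, 3769 with DESeq2, 7196 in the fit of all 40 and 1426 with the replicate block, and monocytes had 2618 and 1701 with that block. Blood neutrophils had 871, 1732 with DESeq2, 436 in the fit of all 40 and 482 with the block. Blood monocytes had 33, 450 with DESeq2, 92 with at least 10 counts, 18 with limma-voom or in the fit of all 40, and 14 with the block. Stroma had 1825, 3632 with DESeq2, 1209 with at least 10 counts and 465 with the block, and healthy blood cells 7634 and 5034 with at least 10 counts. The difference in entry had 700, 2003 with DESeq2, 2145 in the fit of all 40 and 401 with the block, and the difference between epithelium and stroma 3163 and 1528 with at least 10 counts. Among tumor populations, neutrophils against monocytes had 2955 (912 with the animal as a block, 5302 in the fit of all 40), neutrophils against epithelium 4705 (2583, 7817), neutrophils against stroma 3529 (0, 6206), monocytes against epithelium 6099 (3263 with that block, 2538 with at least 10 counts), monocytes against stroma 4321 (334, 7101) and epithelium against stroma 783 (355, 1806, and 177 with limma-voom). Without 1 library, tumor against blood neutrophils had up to 4285 calls (without tumor neutrophil replicate 2), blood neutrophils down to 360 (without healthy replicate 3), blood monocytes 4 (without healthy replicate 1 or replicate 3 or 4 of tumor-bearing mice) to 50 (without healthy replicate 3), stroma down to 853 (without healthy replicate 2) and the difference in entry 351 to 1391 (without blood neutrophil replicate 2 and tumor neutrophil replicate 2). In the tumor, neutrophils against monocytes fell to 1735 (without monocyte replicate 1), neutrophils against epithelium and stroma rose to 7581 and 6193 (without neutrophil replicate 1), and epithelium against stroma had 281 to 1210 (without epithelial replicate 4 and stromal replicate 2).

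The replicate numbers did not pair the libraries. Of 52 pairs of same-numbered libraries in 13 comparisons, 10 deviated together with r over 0.1 (range -0.34 to 0.46), in 0 comparisons all pairs did, and 9 correlated best with their own number.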
